A study of Mus musculus with 17 samples.

Results

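Uteri of Egr1 knockout mice (KO) were compared with uteri of wild-type mice (WT) at 24 h after estradiol (E2), gene by gene. The comparison rests on 4 of the 17 arrays of the study, 2 titled as KO and 2 titled as WT at that time, and all 4 were taken by their titles and not by any measured value. The other 13 arrays cover both genotypes at 0, 3 and 6 h after E2, and they serve here for the common estimate of spread and as earlier reference points. Each array was hybridised with RNA from whole uterus, so all cell layers of the organ are mixed in each value. Every group in this comparison received E2, and the mice differ by genotype alone as far as the labels go. The sources used here give neither the Egr1 allele nor the strain, age, ovariectomy, vehicle or E2 dose. The labels do not say whether the replicates are different mice, so each p-value here reflects replicate spread alone, and that spread may be technical.

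Estradiol acts on the uterus in waves. An early wave brings immediate-early genes, water uptake and RNA synthesis, and a later wave brings DNA synthesis and division of the luminal epithelium together with secretory products such as lactoferrin. EGR1 is a zinc-finger transcription factor of the immediate-early class that binds GC-rich sites, is induced rapidly by growth factors and by estrogen, and is held in check by the NAB corepressors. At 24 h the early wave has passed, and the measurements bear on the state of the tissue at the time of the late wave.

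The values are log2 intensities that were normalized between arrays before deposit, so a difference of 1 stands for a 2-fold difference and every value is relative to the rest of its array. The median of an array was 8.2, its 75th percentile 8.87, and the values ran from 7.39 to 15.94. The 2 KO arrays correlated at r = 0.9971 and the 2 WT arrays at r = 0.9973 over all probes, while the pairs across genotype lay between 0.9903 and 0.9909. The median absolute difference of a gene was 0.06 between the KO arrays, 0.05 between the WT arrays and 0.08 between the genotype means. Markers of the uterine layers were bright. Of the measured markers, 12 of 14 for epithelium, 11 of 13 for smooth muscle, 10 of 11 for stromal fibroblasts and 12 of 14 for endothelium had a mean above the 75th percentile. The counts were 0 of 5 for ovary and oviduct, where 13 markers were listed, and 0 of 4 for neural and Schwann cells. They were 3 of 7 for mesothelium, 2 of 8 for adipocytes, 2 of 6 for skeletal muscle and 1 of 6 for pancreas. Adipocyte markers were high on all arrays of 0 h, which are used below as a reference. Relative to each gene's mean over the 17 arrays, they stood at 1.28 and 1.35 in KO and 0.58 and 0.91 in WT. At 24 h they stood at -0.54 and -0.35 in KO and -0.43 and -0.62 in WT. Their part in the results against 0 h was not tested. Among the arrays of 0 h, 2 also stood apart from their replicates in some lists. KO replicate 2 was high for macrophage markers (0.87 relative to each gene's mean over the 17 arrays, against 0.19 on KO replicate 1), granulocyte markers (0.86 against -0.04) and complement genes (0.95 against 0.26), and WT replicate 1 was high for DNA replication genes (0.31 against -0.30 on WT replicate 2).

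The targeted gene was measured first. The single Egr1 probe read 13.51 and 13.27 on the KO arrays and 11.39 and 12.09 on the WT arrays at 24 h. Both KO arrays were above both WT arrays, and the difference was 1.65 (SE 0.18), or 3.14-fold (limma, adjusted p = 1.47e-04). At 0 h the KO arrays were higher as well, at 13.48 and 13.63 against 12.24 and 12.51. The 2 WT arrays at 24 h were the lowest of the 17 for this probe. A signal above WT goes against the loss of the transcript that a knockout label would lead one to look for, and the sources used here do not say whether the probe lies inside or outside the disrupted stretch. KO therefore means an array whose label says KO, WT an array whose label says WT, and each direction is between those labels.

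Of 14737 genes tested, 1231 (8.35%) differed between KO and WT at 24 h. A gene counts as called when its adjusted p-value in limma, over all genes tested, is under 0.05. The calls were split almost evenly, with 601 genes (4.08%) higher and 630 genes (4.27%) lower in KO. All 1231 had 2 KO values on one side of both WT values, a pattern that 59.5% of all genes tested also showed (29.9% with KO above and 29.6% with KO below). Called genes differed by a median of 0.40 on the log2 scale in absolute value. Differences of 2-fold or more were few. They numbered 52 genes (0.353%), of which 14 were higher and 38 lower in KO. Without any 1 of the 4 arrays of 24 h the number of calls lay between 392 (without WT replicate 2) and 443 (without KO replicate 1), with 428 without KO replicate 2 and 433 without WT replicate 1.

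**Figure D1:**
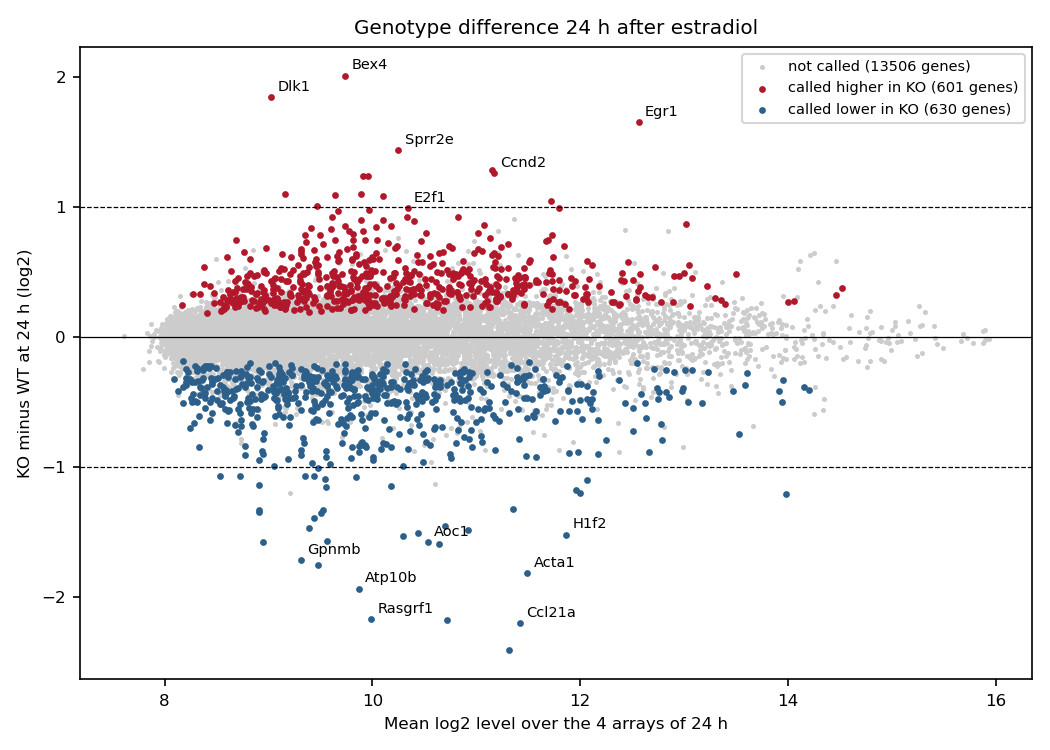
Genotype difference at 24 h (KO minus WT, log2, vertical axis) against the mean log2 level over the 4 arrays (horizontal axis) for 14737 genes. Red points are the 601 genes called higher in KO, blue points the 630 called lower, grey points the rest, and dashed lines mark a 2-fold difference. The points beyond the lower line, led by Ccl21c at -2.41, outnumber those beyond the upper line, led by Bex4 at 2.01.

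Among the genes higher in KO, Bex4, a brain-expressed X-linked family member, had the largest difference. It read 10.96 and 10.53 in KO and 8.72 and 8.76 in WT, a difference of 2.01 (SE 0.19; limma, adjusted p = 5.65e-05). Its groups did not overlap, and the other Bex4 probes showed 0.20 to 1.44. Dlk1, an imprinted transmembrane relative of Notch ligands, read 10.17 and 9.72 in KO against 8.14 and 8.07 in WT, a difference of 1.84. The WT arrays lay near the array median, where most probes have little signal. Its call (limma, adjusted p = 0.0237) was lost without any 1 of the 4 arrays, where the difference ran from 1.62 to 2.07, and its other probe showed 0.52.

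Sprr2e, a small proline-rich protein of squamous and estrogen-stimulated epithelium, read 11.09 and 10.85 in KO and 9.49 and 9.58 in WT. The groups stood well apart, with a difference of 1.43 (SE 0.10), or 2.70-fold (limma, adjusted p = 1.91e-05). Ccnd2, the G1 cyclin D2, read 11.75 and 11.84 in KO against 10.49 and 10.59 in WT, a difference of 1.26 (SE 0.11; limma, adjusted p = 2.92e-05). Replicates of Ccnd2 differed by far less than the genotypes, and its other probes agreed in sign, at 0.48 to 1.24. Ccnd3, the related cyclin D3, read 12.27 and 12.31 in KO and 11.30 and 11.29 in WT, a difference of 0.99 (limma, adjusted p = 5.85e-05). Its second probe showed -0.04 and did not follow. Further rises followed. Maob, the mitochondrial monoamine oxidase B, was higher by 1.24, Slc6a2, the noradrenaline transporter, by 1.23 and Inmt, an N-methyltransferase acting on indolethylamines, by 1.28. The other probes of Slc6a2 showed 0.10 to 0.19. The secreted factors Stc1 (stanniocalcin, 1.10), Lgi2 (1.08) and Ecrg4 (1.01) were higher too, as were Ldoc1 (1.10) and the monooxygenase-like Moxd1 (1.09).

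Hsph1, a chaperone of the HSP110 family, differed between its own KO replicates. It read 11.75 and 12.73 in KO and 11.19 and 11.21 in WT, so KO replicate 2 set much of the difference of 1.04. Without that array the difference was 0.55 and the call was lost (limma, adjusted p = 0.224), and it was also lost without WT replicate 1 (1.03) or WT replicate 2 (1.06). The call of Inmt was lost without KO replicate 1 (1.21) or WT replicate 1 (1.13).

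**Figure D2:**
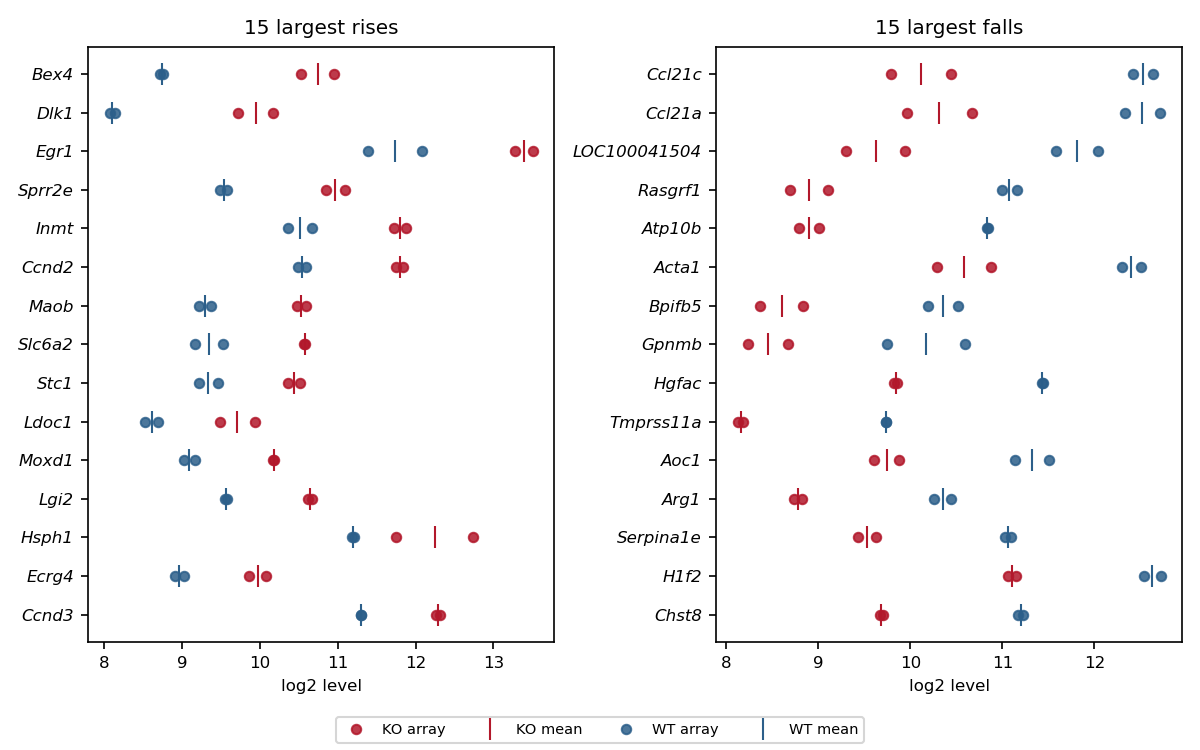
Log2 level (horizontal axis) of the 15 genes with the largest called rise (left) and the 15 with the largest called fall (right) at 24 h; points are single arrays, KO in red and WT in blue, and vertical ticks are group means. Every gene shown has both KO arrays on one side of both WT arrays, while the replicates of Hsph1 (11.75 and 12.73 in KO) lie farther apart than those of Ccnd3 (12.27 and 12.31).

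The largest falls in KO belonged to CCL21, the chemokine that lymphatic vessels and lymphoid stroma use to draw in CCR7-bearing cells. Ccl21a read 10.67 and 9.96 in KO and 12.71 and 12.33 in WT, which is 4.61-fold lower in KO, or -2.21 on the log2 scale (SE 0.21; limma, adjusted p = 6.29e-05). Ccl21c (-2.41, or 5.33-fold lower) and LOC100041504 (-2.18) followed the same order of arrays at 24 h. These are near-identical gene copies whose probes may read one another's transcripts, so they are best taken as 1 signal. On all 3 probes the KO replicates lay apart from each other, yet both stayed below WT.

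Rasgrf1, an imprinted exchange factor for Ras, read 9.10 and 8.70 in KO and 10.99 and 11.16 in WT, a difference of -2.17 (SE 0.26; limma, adjusted p = 2.77e-04). Its other probes ran from -1.87 to -0.27. Atp10b, a phospholipid-transporting ATPase, read 8.79 and 9.01 in KO against 10.85 and 10.83 in WT (-1.94, or 3.83-fold lower; limma, adjusted p = 1.62e-04). In both genes the gap between genotypes was wider than that between replicates. Acta1, the skeletal muscle actin that is also found in contractile uterus, read 10.29 and 10.88 in KO and 12.51 and 12.30 in WT (-1.82). Its call (limma, adjusted p = 0.0166) was lost without KO replicate 1 (-1.52), WT replicate 1 (-1.71) or WT replicate 2 (-1.92).

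Other large falls were in genes of diverse function. Tmprss11a, a membrane-bound serine protease of epithelia, read 8.12 and 8.19 in KO and 9.74 and 9.73 in WT, or 2.99-fold lower (-1.58, SE 0.13; limma, adjusted p = 2.52e-05). The KO arrays stood near the array median. Arg1, the arginase that splits arginine into ornithine and urea, read 8.82 and 8.74 in KO against 10.26 and 10.45 in WT (-1.57, SE 0.17; limma, adjusted p = 1.27e-04), and its second probe showed -0.82. Chst8, a sulfotransferase that acts on N-acetylgalactosamine, read 9.70 and 9.67 in KO and 11.17 and 11.22 in WT (-1.51, SE 0.14; limma, adjusted p = 5.85e-05). In these 3 genes the gap between genotypes was many times that between replicates. Hgfac, the serine protease that activates hepatocyte growth factor, was lower by -1.59, Aoc1, the diamine oxidase, by -1.58, Serpina1e, an alpha-1 antitrypsin copy, by -1.53 and the linker histone H1f2 by -1.52. Bpifb5, a lipid-binding secreted protein, differed by -1.75 and lost its call without any 1 of the 4 arrays (-1.99 to -1.52). Gpnmb, a lysosomal glycoprotein of macrophages, differed by -1.72, lost its call without KO replicate 2 (-1.50) or WT replicate 2 (-1.30), and had other probes at -0.11 to 0.01.

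Genes of DNA replication and the G1/S transition were higher in KO at 24 h as a group. Of 30 measured members 19 were called higher and 0 lower, beside 4.08% of all genes called higher, and the median difference was 0.62, beside 0.001 over all genes. All 30 had both KO arrays above both WT arrays, beside 29.9% of all genes. E2f1, the transcription factor that drives S-phase genes, read 10.89 and 10.78 in KO and 10.07 and 9.63 in WT, a difference of 0.99 (SE 0.22; limma, adjusted p = 0.0132). Ung, the uracil-DNA glycosylase, read 11.39 and 11.18 in KO against 10.62 and 10.12 in WT (0.92). Cdc6, which loads the replicative helicase onto origins, read 10.50 and 10.41 against 9.89 and 9.34 (0.84), and its second probe showed 0.06. In all 3 genes WT replicate 2 was the lowest array, and WT replicate 1 lay between it and the KO arrays. The calls of E2f1, Ung and Cdc6 were each lost without KO replicate 1 (0.94, 0.81 and 0.80), KO replicate 2 (1.04, 1.02 and 0.89) or WT replicate 2 (0.77, 0.67 and 0.57). The other probes of Ung showed 0.09 to 0.26.

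The subunits of the helicase and its loading machinery moved alike. Mcm7 read 10.58 and 10.53 in KO and 9.91 and 9.84 in WT (0.68; limma, adjusted p = 0.00139), Mcm2 was higher by 0.70 and Mcm3 by 0.65. Mcm5 (0.82), Mcm6 (0.62) and Mcm4 (0.50) had the same direction and did not pass the test. Cdt1, the licensing factor, was higher by 0.65, Cdc45 by 0.74, and Gins1 and Gins2 by 0.60 and 0.49. Among synthesis factors, the sliding clamp Pcna was higher by 0.61 (limma, adjusted p = 9.49e-04), the flap endonuclease Fen1 was higher by 0.74, the ligase Lig1 by 0.68, and the polymerase subunits Pold1 and Pole by 0.62 and 0.57. Rrm2, the small subunit of ribonucleotide reductase, was higher by 0.53 and cyclin E2 (Ccne2) by 0.41. The count of 19 changed with the array left out and with the arrays fitted. It was 2 without KO replicate 1, 4 without KO replicate 2, 12 without WT replicate 1 and 2 without WT replicate 2, while the list median stayed between 0.51 and 0.72. Under the other settings it ran from 16 to 29, the last with the arrays of 24 h alone.

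The promoters of 3 called replication genes are shown because the list held the E2F motif more often than other genes did. They are the RefSeq promoter windows of GRCm38.p6, 250 bases before to 50 bases after the start, read on the gene's strand with the match in capitals. Mcm7 is at chr5:138171834-138172133 on the minus strand with its match beginning 16 bases past the start, Mcm3 at chr1:20820263-20820562 on the minus strand with its match 38 bases past it, and Cdt1 at chr8:122567765-122568064 on the plus strand with its match 32 bases past it.
Mcm7: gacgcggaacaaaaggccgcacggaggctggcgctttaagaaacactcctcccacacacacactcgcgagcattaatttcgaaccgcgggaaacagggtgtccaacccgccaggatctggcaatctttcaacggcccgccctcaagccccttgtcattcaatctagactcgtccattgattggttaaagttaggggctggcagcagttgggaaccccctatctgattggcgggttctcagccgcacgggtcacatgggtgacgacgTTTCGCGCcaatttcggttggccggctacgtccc
Mcm3: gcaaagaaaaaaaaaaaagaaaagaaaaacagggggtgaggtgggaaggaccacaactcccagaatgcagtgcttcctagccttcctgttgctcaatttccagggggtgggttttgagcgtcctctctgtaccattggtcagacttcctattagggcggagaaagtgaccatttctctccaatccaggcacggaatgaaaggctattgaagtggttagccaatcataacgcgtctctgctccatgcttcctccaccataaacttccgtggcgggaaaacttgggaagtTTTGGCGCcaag
Cdt1: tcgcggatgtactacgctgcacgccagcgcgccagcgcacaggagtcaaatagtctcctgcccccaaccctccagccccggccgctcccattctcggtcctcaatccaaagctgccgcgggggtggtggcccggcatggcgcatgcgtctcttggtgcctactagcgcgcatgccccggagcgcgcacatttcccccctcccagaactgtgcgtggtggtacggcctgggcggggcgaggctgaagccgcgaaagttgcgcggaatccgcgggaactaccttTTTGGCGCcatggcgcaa
The search took TTTCGCGC or TTTGGCGC on either strand, and these cannot both match at the same position of a strand. Of the 14893 promoters found for 11820 of the genes tested, 1.27% held a match, beside 0.813% of all 32851 promoters in the table. The share was 26.7% for the replication list (8 of 30 promoters), 5% for the mitosis list (1 of 20), 4.37% for genes called higher in KO and 1.4% for genes called lower. These shares describe letters in a window and not binding.

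The list of mitosis and G2/M had a median of -0.11, and 0 of its 25 measured genes passed the test in limma in either direction, while 3 had an unadjusted p under 0.05. Cdc20, the activator of the anaphase-promoting complex, read 10.61 and 10.69 in KO and 11.28 and 11.77 in WT (-0.87; limma, adjusted p = 0.0994). Plk1, the polo-like kinase, read 10.64 and 10.71 against 10.97 and 11.47 (-0.54), and Aurkb, the kinase of the chromosomal passenger complex, 10.38 and 10.39 against 9.80 and 10.12 (0.42). For Cdc20 and Plk1 both KO arrays were below both WT arrays, and for Aurkb both were above. Of the 25 members 10 lay below without overlap (29.6% of all genes did) and 6 above (29.9% of all genes did). Outside the list, and chosen after their values were seen, Cenpa, the histone of centromeres, was called lower by -1.20 and Cdkn3, a mitotic phosphatase, by -1.08. In the fit on the 4 arrays of 24 h alone 4 mitotic members were called higher and 3 lower. Without WT replicate 1 there was 1 call, lower, and without WT replicate 2 the list median was 0.02.

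Regulators of the G1 phase were called in both directions. Of 11 measured cyclins, D-cyclin kinases and kinase inhibitors, 4 were called higher and 2 lower in KO (4.08% and 4.27% of all genes were). Beside Ccnd2 and Ccnd3, cyclin D1 (Ccnd1) read 13.22 and 13.15 in KO and 12.77 and 12.67 in WT (0.47; limma, adjusted p = 0.0132), and its partner Cdk4 was higher by 0.45. The inhibitors Cdkn2b (p15) and Cdkn1c (p57) were lower. Cdkn2b read 8.41 and 8.39 in KO against 9.10 and 9.06 in WT (-0.68; limma, adjusted p = 4.57e-04), and Cdkn1c 11.25 and 11.24 against 11.91 and 11.78 (-0.60). Thus the 3 D cyclins were above WT on both KO arrays and 2 inhibitors below. The calls of Ccnd1 (0.41 to 0.52) and Cdkn1c (-0.67 to -0.54) were lost without any 1 of the 4 arrays.

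Ribosome biogenesis genes had a median difference of 0.34. Of 23 measured, 12 were called higher (4.08% of all genes were) and 0 lower, and 21 had both KO arrays above both WT arrays (29.9% of all genes did). Nop58 and Nop56, core proteins of box C/D ribonucleoproteins, were higher by 0.57 and 0.47, nucleolin (Ncl) by 0.51 and the processing factors Rrp12 and Rrp9 by 0.53 and 0.49. Rrp9 read 10.25 and 10.22 in KO and 9.78 and 9.71 in WT (limma, adjusted p = 8.96e-04). The list count was 2 without KO replicate 1, KO replicate 2 or WT replicate 2 and 4 without WT replicate 1, with medians of 0.28 to 0.37.

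**Figure D3:**
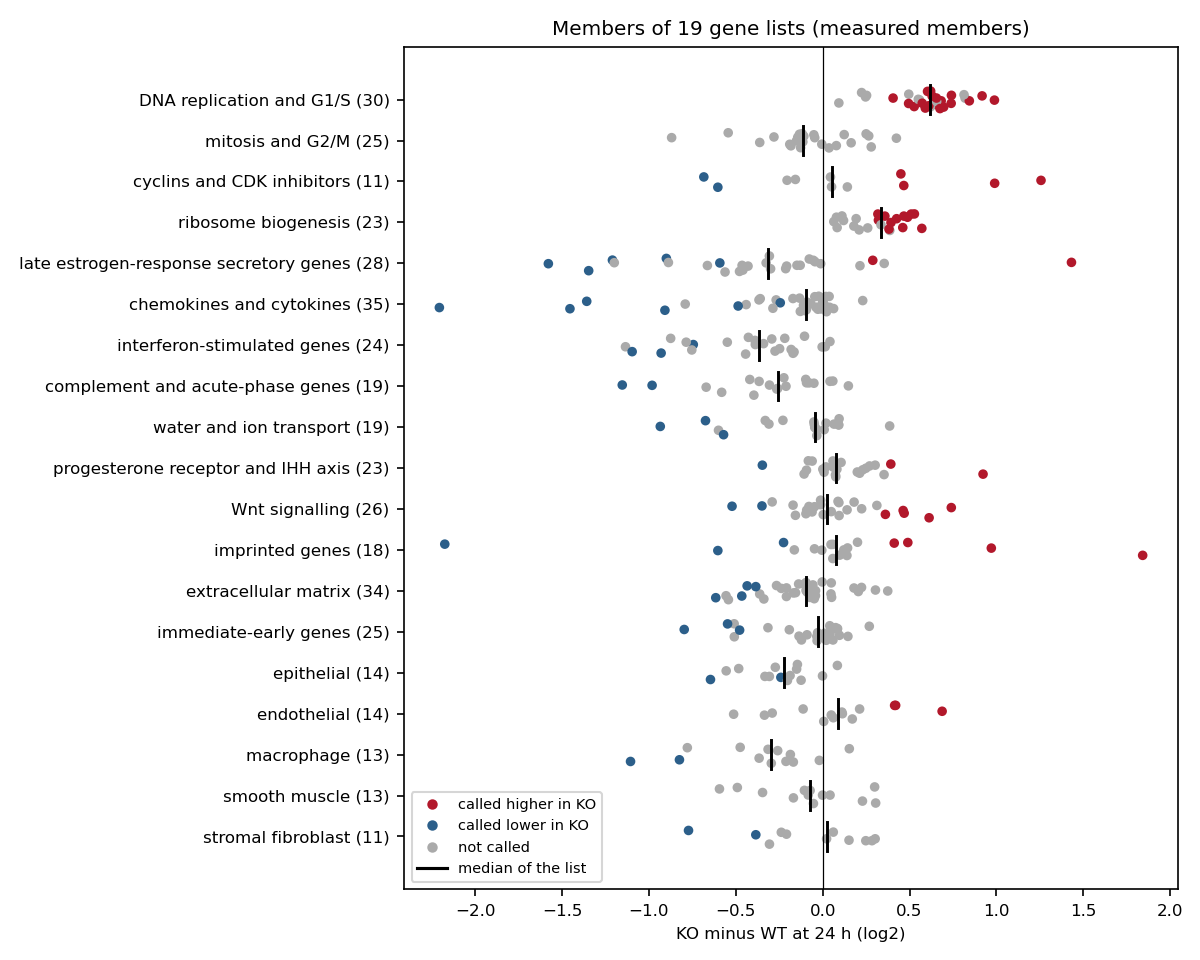
KO minus WT at 24 h (log2, horizontal axis) of each measured member of 19 gene lists, with the number of members in brackets; red points are called higher, blue points called lower, grey points not called, and black bars are list medians. The replication list sits wholly right of 0 with a median of 0.62, and the interferon list lies mostly left of it with a median of -0.36.

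The late secretory answer of the uterine epithelium to estrogen was lower in KO for several products. Of 28 measured genes of that list, 5 were called lower (4.27% of all genes were) and 2 higher, 19 had both KO arrays below both WT arrays (29.6% of all genes did), and the median was -0.32. Beside Aoc1, the polymeric immunoglobulin receptor Pigr, which carries IgA across the epithelium, read 8.17 and 8.29 in KO and 9.76 and 9.40 in WT (-1.35, SE 0.13; limma, adjusted p = 7.63e-05). Lcn2, the siderophore-binding lipocalin, read 13.37 and 13.39 in KO against 14.62 and 14.56 in WT, or 2.31-fold lower (-1.21; limma, adjusted p = 0.0405). Both were clearly separated between genotypes at 24 h. The SE of Lcn2, pooled over all groups, was 0.34. Its call was lost without any 1 of the 4 arrays (-1.24 to -1.18) and with the replicate number as a block. Chil1, a chitinase-like lectin, was lower by -0.90. Ltf, lactoferrin, the classical late marker, read 14.10 and 14.12 in KO and 14.69 and 14.48 in WT (-0.48) and did not pass the test, nor did the protease inhibitor Slpi, at 8.57 and 8.64 against 10.04 and 9.57 (-1.20).

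Members of the Sprr2 family, which are near-identical copies on neighbouring genes, did not move together. Sprr2e was higher by 1.43 and Sprr2b by 0.29, while Sprr2d was lower, at 9.58 and 9.62 in KO against 10.13 and 10.25 in WT (-0.59; limma, adjusted p = 0.00241). Sprr2f read 13.65 and 13.77 against 14.01 and 14.01 and was not called. Cross-reading between these copies was not tested. The secretory count was 3 lower and 1 higher without any 1 of the 4 arrays, and 16 lower and 3 higher in the fit on the arrays of 24 h alone.

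Water and ion transport genes of the epithelium gave 3 calls among 19 measured, all lower in KO (4.27% of all genes were). Cftr, the chloride channel that secretes uterine fluid, read 9.40 and 9.25 in KO and 10.35 and 10.17 in WT (-0.93; limma, adjusted p = 0.0056). Slc12a2, the basolateral chloride loader, was lower by -0.67 and Fxyd3, a sodium pump modulator, by -0.57. The other probes of Slc12a2 ran from -0.78 to 0.03. The call of Cftr was lost without KO replicate 2 (-0.86) or WT replicate 1 (-0.84), and that of Fxyd3 without KO replicate 2 (-0.49), WT replicate 1 (-0.58) or WT replicate 2 (-0.56). Epithelial markers were examined beside these genes. Of 14 measured, 12 lay below WT on both KO arrays (29.6% of all genes did) and 2 were called lower (4.27% of all genes were). Their mean level was 10.58 and 10.50 in KO and 10.79 and 10.79 in WT. E-cadherin (Cdh1) read 10.88 and 10.91 in KO against 11.59 and 11.49 in WT (-0.65; limma, adjusted p = 1.41e-04) and Epcam was lower by -0.24. In bulk tissue fewer epithelial cells and less RNA per cell cannot be told apart, and the part of the markers in the secretory and transport results was not tested.

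Some chemokines were lower in KO besides CCL21. Of 35 measured chemokines and cytokines, 6 were called lower (4.27% of all genes were) and 0 higher, with a median of -0.09. Cxcl17, a mucosal chemokine, read 8.84 and 8.82 in KO and 10.24 and 10.13 in WT (-1.36, SE 0.11; limma, adjusted p = 2.52e-05), and its second probe showed -1.06. Cxcl14, which is secreted by epithelium and stroma, read 9.01 and 8.71 against 9.68 and 9.86 (-0.91; limma, adjusted p = 3.71e-04). Ccl11, the eotaxin that attracts eosinophils to the estrogen-treated uterus, read 9.84 and 10.10 in KO and 11.32 and 11.53 in WT (-1.45; limma, adjusted p = 0.0209), and its second probe showed -1.10. All these groups stood apart, but the call of Ccl11 was lost without any 1 of the 4 arrays (-1.58 to -1.33). Cxcl16 (-0.49) and Ccl28 (-0.24) completed the 6, and 3 calls were left without any 1 of the 4 arrays.

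Interferon-stimulated genes lay below WT with a median of -0.36 and few calls. Of 24 measured, 20 had both KO arrays below both WT arrays (29.6% of all genes did) and 3 were called lower (4.27% of all genes were). Oas2, an oligoadenylate synthetase, read 8.74 and 9.25 in KO and 10.33 and 9.86 in WT (-1.10; limma, adjusted p = 0.0177). Usp18, which removes ISG15 from proteins, was lower by -0.93 and Oasl1 by -0.74. Ifit3, at 9.93 and 10.13 against 11.51 and 10.83 (-1.13), and Oasl2, at 11.15 and 11.56 against 12.41 and 12.05 (-0.87), were not called. In each of Oas2, Ifit3 and Oasl2, WT replicate 1 was the highest array and KO replicate 1 the lowest. An unadjusted p under 0.05 in limma was reached by 15 members, all lower. The count of calls was 0 without KO replicate 1 or without WT replicate 1, 3 without either of the other arrays, and 17 in the fit on the arrays of 24 h alone. Complement and acute-phase genes gave 2 calls of 19, both lower (4.27% of all genes were). The complement protease Cfi read 8.98 and 8.97 in KO and 10.14 and 10.11 in WT (-1.15; limma, adjusted p = 9.97e-05), and ceruloplasmin (Cp) was lower by -0.98, with other probes at -0.39 to -0.10 and its call lost without WT replicate 1 (-0.70).

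Macrophage markers gave 2 calls among 13 measured, both lower in KO (4.27% of all genes were). On both KO arrays 11 of the 13 lay below both WT arrays (29.6% of all genes did), the median was -0.30 and the mean level was 9.01 and 9.13 in KO and 9.49 and 9.39 in WT. The called ones were Laptm5, a lysosomal protein of blood cells, at 11.42 and 11.60 against 12.65 and 12.58 (-1.11), and the endotoxin coreceptor Cd14, at 9.60 and 9.84 against 10.53 and 10.57 (-0.82). Adgre1, a surface receptor of mature macrophages, read 8.69 and 8.92 in KO and 9.47 and 9.10 in WT (-0.47) and did not pass. The call of Laptm5 was lost without any 1 of the 4 arrays (-1.20 to -1.01), and that of Cd14 without KO replicate 1 (-0.70), WT replicate 1 (-0.84) or WT replicate 2 (-0.80). Of 9 measured genes of MHC class II presentation 7 lay below without overlap (29.6% of all genes did), while 0 were called in limma and 0 had an unadjusted p under 0.05. Of 10 granulocyte markers 1 was called, the eosinophil granule protein Prg2 (-0.35), beside 8.35% of all genes. A mean above the 75th percentile was reached by 0 of the 10. The part of these cells in the chemokine, interferon and complement results was not tested.

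Egr1 was the one called gene among the 6 measured EGR and NAB genes. The related factors Egr2, Egr3 and Egr4 differed by 0.11, 0.09 and 0.04, and the corepressors Nab1 and Nab2 by 0.15 and -0.11. Of 25 immediate-early genes 3 were called, all lower in KO (4.27% of all genes were). The list median was -0.03, beside 0.001 over all genes. Ier3, a stress-response survival gene, read 12.45 and 12.33 in KO and 13.02 and 13.35 in WT (-0.80; limma, adjusted p = 0.0137), Fosl2, the AP-1 subunit FRA2, was lower by -0.55 and the stress sensor Gadd45g by -0.48. The call of Ier3 was lost without KO replicate 1 (-0.86), KO replicate 2 (-0.74) or WT replicate 2 (-0.63), and that of Gadd45g without KO replicate 2 (-0.35), WT replicate 1 (-0.55) or WT replicate 2 (-0.41). The second probe of Fosl2 showed -0.07. Fos itself read 9.64 and 9.38 against 9.96 and 10.08 (-0.51) and was not called. Of 17 measured genes reported elsewhere as EGR1 targets, 3 were called higher and 2 lower (4.08% and 4.27% of all genes were). Higher were Igf2, Ccnd1 and Pdgfb (the growth factor PDGF-B, 0.39). Lower were the membrane protease Mmp14 (-0.51) and the adhesion molecule Icam1 (-0.31). The call of Pdgfb was lost with the replicate block and without KO replicate 1, KO replicate 2 or WT replicate 1, over a range of 0.24 to 0.54.

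The consensus that EGR factors bind was searched in the same promoter windows. GCGNGGGCG on either strand was present in 9.17% of the promoters of genes tested, 10.7% of those called higher and 10.1% of those called lower, beside 5.55% of all promoters in the table. Its stricter form GCGTGGGCG, which is contained in the first, was present in 1.06%, 1.13% and 1.4%, beside 0.612% of the table. The palindromic consensus of the estrogen response element was in 0.0201% of the promoters of genes tested and in 0 of the 618 promoters of genes called higher and 0 of the 643 of genes called lower, and an absence from this window says nothing about the receptor. A match was present in 1 of 12 promoters of the 15 largest falls (8.33%) and in 3 of 30 of the replication list (10%). These shares lie near the 9.17% of all genes tested. Chst8, one of those falls, and E2f1, the largest rise of the replication list, are shown because each holds an EGR match, in capitals. Chst8 is at chr7:34812662-34812961 on the minus strand with the match beginning at -152 from the start, and E2f1 at chr2:154569377-154569676 on the minus strand with the match at -49, both in GRCm38.p6 from RefSeq.
Chst8: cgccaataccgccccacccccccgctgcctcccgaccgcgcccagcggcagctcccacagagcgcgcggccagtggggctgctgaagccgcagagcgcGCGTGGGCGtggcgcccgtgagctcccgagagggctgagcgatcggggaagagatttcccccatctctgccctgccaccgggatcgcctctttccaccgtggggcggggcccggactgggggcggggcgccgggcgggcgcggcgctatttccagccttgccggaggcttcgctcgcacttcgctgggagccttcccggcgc
E2f1: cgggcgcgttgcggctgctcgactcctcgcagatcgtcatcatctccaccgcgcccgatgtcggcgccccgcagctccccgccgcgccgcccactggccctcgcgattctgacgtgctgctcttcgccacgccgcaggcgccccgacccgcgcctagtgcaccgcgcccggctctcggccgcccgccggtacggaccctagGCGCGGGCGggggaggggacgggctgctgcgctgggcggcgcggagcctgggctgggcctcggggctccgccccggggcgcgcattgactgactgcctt

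Stroma and epithelium signal to each other through the progesterone receptor and Indian hedgehog axis. Of its 23 measured genes 2 were called higher and 1 lower (4.08% and 4.27% of all genes were), with a median of 0.08. Nr2f2, the stromal nuclear receptor COUP-TFII, read 10.84 and 10.75 in KO and 9.88 and 9.87 in WT (0.92, SE 0.09; limma, adjusted p = 8.95e-05), with other probes at 0.03 and 0.12. Fkbp4, the receptor cochaperone FKBP52, read 13.40 and 13.43 against 13.04 and 13.01 (0.39; limma, adjusted p = 0.00241). Hhip, which binds and blocks hedgehog ligands, was lower by -0.35, a call lost without KO replicate 1 (-0.31), KO replicate 2 (-0.38) or WT replicate 1 (-0.28). The progesterone receptor Pgr itself differed by 0.35 and was not called. Nr2f2 was the 1 call among 18 nuclear receptors and coregulators (8.35% of all genes were called).

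Wnt signalling genes were called in both directions. Of 26 measured, 5 were called higher and 2 lower in KO (4.08% and 4.27% of all genes were). Lgr5, the R-spondin receptor that marks stem cells, read 9.03 and 8.79 in KO and 8.33 and 8.27 in WT (0.61; limma, adjusted p = 0.0022). Fzd10, a Wnt receptor, was higher by 0.74, the feedback inhibitor Nkd1 by 0.47, and the epithelial ligands Wnt7a and Wnt6 by 0.46 and 0.36. The receptors Fzd6 (-0.52) and Fzd2 (-0.35) were lower. The call of Wnt7a was lost without any 1 of the 4 arrays (0.37 to 0.56) and with the block, and that of Fzd10 without KO replicate 1 (0.59), KO replicate 2 (0.90) or WT replicate 1 (0.51), with its other probes at 0.15 to 0.29. Of 21 genes of BMP, activin and TGF-beta signalling 0 were called in limma, and 5 had an unadjusted p under 0.05.

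Imprinted genes held some of the widest differences in both directions. Of 18 measured, 4 were called higher (Dlk1, Igf2, Ndn and Mest) and 3 lower (Rasgrf1, Cdkn1c and Dio3), beside 4.08% and 4.27% of all genes. Igf2, the fetal growth factor, read 10.44 and 10.46 in KO and 9.47 and 9.49 in WT (0.97, SE 0.18; limma, adjusted p = 0.00458) and kept its call without any 1 of the 4 arrays (0.96 to 0.98). Necdin (Ndn) was higher by 0.49 and Mest by 0.41, and the call of Ndn was lost without KO replicate 2 (0.44) or WT replicate 2 (0.45). Extracellular matrix genes gave 4 calls among 34, all lower (4.27% of all genes were). They were Mmp11 (-0.62), Col18a1 (-0.47), Fbln2 (-0.43) and Dcn (-0.38), and each call was lost without any 1 of the 4 arrays. Cholesterol synthesis (17 measured), glycolysis (14), the unfolded protein response (20) and prostaglandin synthesis (14) gave 0 calls in limma, with 1, 3, 4 and 3 members at an unadjusted p under 0.05. Their medians lay between -0.02 and 0.17, and in these lists a difference was not detected rather than shown to be absent.

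Markers of other cell types were called in both directions. Endothelial genes gave 3 calls among 14, all higher (4.08% of all genes were). These were Flt1 (VEGF receptor 1), endomucin (Emcn, 0.42) and endoglin (Eng, 0.41). Flt1 read 11.61 and 11.56 in KO against 10.87 and 10.92 in WT (0.69, limma adjusted p = 8.96e-04). Of the 14, 8 lay above WT without overlap and 4 below, beside 29.9% and 29.6% of all genes. The lowest of the 14 differed by -0.51. The second probe of Flt1 showed -0.02, and the call of Emcn was lost without any 1 of the 4 arrays (0.40 to 0.44). Of 13 smooth muscle markers 0 were called in limma and 5 had an unadjusted p under 0.05, with a mean level of 11.30 and 11.39 in KO and 11.47 and 11.37 in WT. Among 11 fibroblast markers Dpt (dermatopontin, -0.77) and Dcn were called lower (4.27% of all genes were). The call of Dpt was lost without KO replicate 1 (-0.65) or WT replicate 1 (-0.69). Kit, the stem cell factor receptor of mast and pacemaker cells, was lower by -0.85 with a second probe at -0.08. In all, 1 of 7 mast cell markers was called (8.35% of all genes were).

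The main fit gave more calls between genotypes at 24 h than at any earlier time. Calls of at least 2-fold did not set 24 h apart from 0 h. They numbered 52 at 24 h and 49 at 0 h, beside 22 at 3 h and 8 at 6 h. Without any 1 array of 24 h, its number of calls fell below those of 0 and 3 h in the main fit. At 0 h 653 genes (4.43%) were called, at 3 h 624 (4.23%) and at 6 h 93 (0.631%). Of the 1231 genes called at 24 h, 99 had the same direction and a call at 0 h, which is 8.04% of the 24 h list and 15.2% of the 0 h list, and 54 had a call in the opposite direction. With 3 h the shared calls were 98 (7.96% and 15.7%) and with 6 h 23 (1.87% and 24.7%). The change in the genotype difference was then tested itself. It passed for 1071 genes (7.27%) against 0 h, 895 (6.07%) against 3 h and 399 (2.71%) against 6 h. These counts leaned on single arrays, since the first was 2258 without WT replicate 2 of 0 h and 375 without WT replicate 2 of 24 h, with 426 without KO replicate 2 and 533 without WT replicate 1 of 0 h, the second 1512 without KO replicate 1 of 3 h and 218 without KO replicate 2 of 24 h, and the third 671 without KO replicate 1 of 6 h and 74 without WT replicate 1 of 6 h. Of the 14 genes at least 2-fold higher 9 passed this test against 0 h with the same sign, and of the 38 at least 2-fold lower 20 did. These genes were picked by their 24 h values, which the test reuses, so such passes were favoured in advance and the counts only describe. At 0 h 4 of the 14 and 7 of the 38 were already called in the same direction, and 1 of the 14 in the opposite one.

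Some of the largest differences at 24 h were called at 0 h as well. Dlk1 differed by 3.55 at 0 h, Bex4 by 1.43, Igf2 by 1.35, Rasgrf1 by -1.73 and Atp10b by -1.30, and for none of these did the test of the change pass. Others had no call at 0 h. Tmprss11a rose by 1.46 from 0 to 24 h in WT (limma, adjusted p = 2.66e-06; 37.9% of all genes changed in WT and 45.7% in KO) and changed by -0.10 in KO, Arg1 rose by 2.20 in WT and changed by 0.26 in KO, whose arrays of 0 h read 8.17 and 8.87, and Chst8 rose by 2.04 in WT and by 0.53 in KO. Ccl21a went the other way. It fell by 3.02 in KO, from 13.32 and 13.36 at 0 h, and changed by -0.47 in WT, from 12.89 and 13.09. The change in the difference was -2.55 for Ccl21a (limma, adjusted p = 7.09e-04), -1.94 for Arg1, -1.56 for Tmprss11a and -1.51 for Chst8. Ccnd2 fell by 0.67 in WT and rose by 0.35 in KO, and Sprr2e rose in both, by 1.38 and 2.74.

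**Figure D4:**
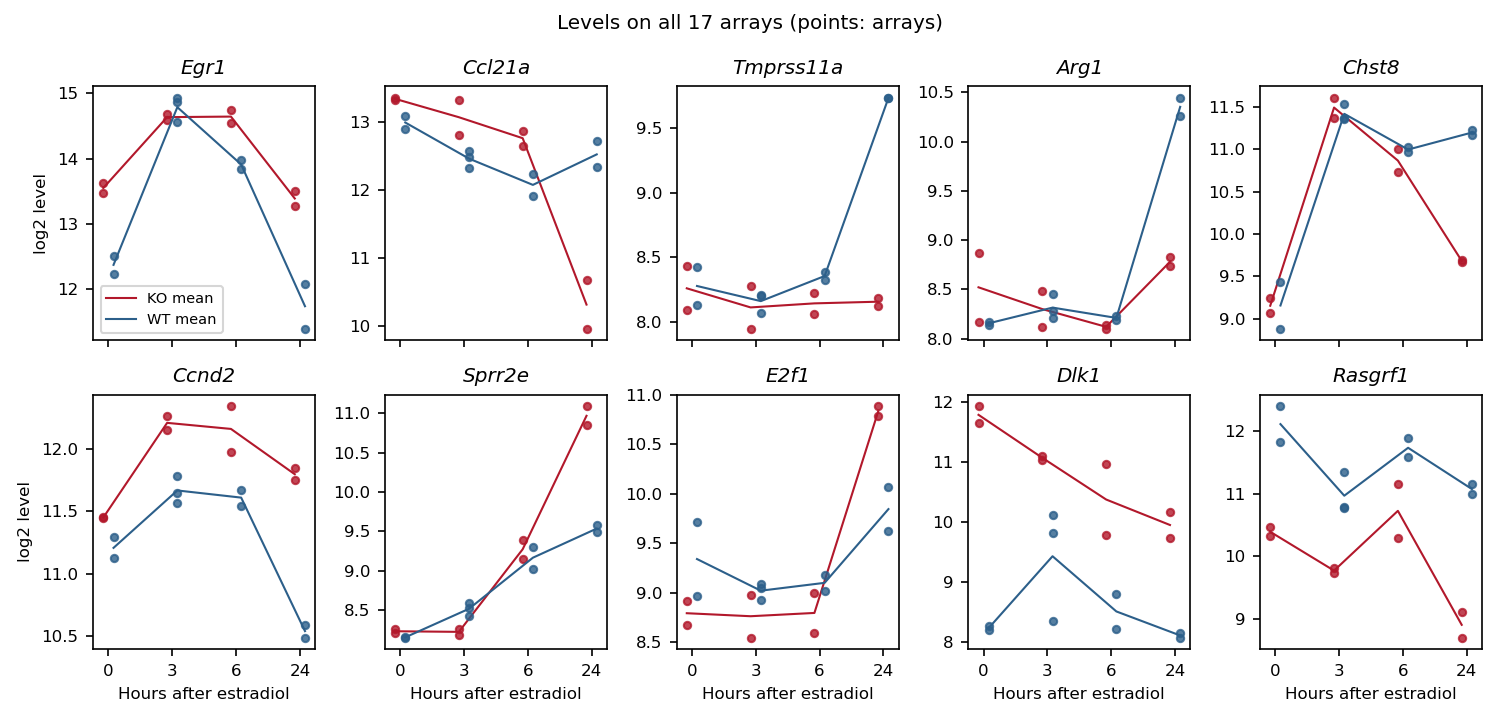
Log2 level of 10 genes on all 17 arrays by hour after estradiol (0, 3, 6 and 24 h, equally spaced on the horizontal axis); points are arrays, lines join group means, KO in red and WT in blue. Ccl21a parts between 6 and 24 h with KO down to 9.96, Tmprss11a and Arg1 reach 9.74 and 10.45 in WT at 24 h against 8.19 and 8.82 at most in KO, and Dlk1 and Rasgrf1 are apart from 0 h.

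The replication list gained its sign between 6 and 24 h. Its median difference was -0.40 at 0 h, -0.11 at 3 h, -0.22 at 6 h and 0.62 at 24 h. The mean level of the list, relative to each gene's mean over the 17 arrays, was 1.26 and 1.12 on the KO arrays and 0.72 and 0.46 on the WT arrays at 24 h. Both genotypes stood above their own earlier arrays by then. At 0 h WT replicate 1 stood apart from the other WT array, as given above, and from KO at -0.46 and -0.39. Against 0 h the change in the difference passed, upward, for 21 of 30 members (4.12% of all genes passed upward) with a median of 0.91. Without 1 array of 0 h it passed for 13 with a median of 0.74 (WT replicate 1), 27 (WT replicate 2), 12 (KO replicate 1) or 10 (KO replicate 2), and without 1 array of 24 h for 6 (WT replicate 2), 9 (KO replicate 1), 12 (KO replicate 2) or 19 (WT replicate 1). For ribosome biogenesis the medians were -0.03 at 0 h and 0.34 at 24 h, and 6 of 23 members passed. That count was 13 without WT replicate 2 of 0 h, 5 without KO replicate 1 of 0 h, 4 without WT replicate 1 of 24 h, 2 without WT replicate 1 of 0 h, 1 without KO replicate 2 of 0 h or either KO array of 24 h, and 0 without WT replicate 2 of 24 h.

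**Figure D5:**
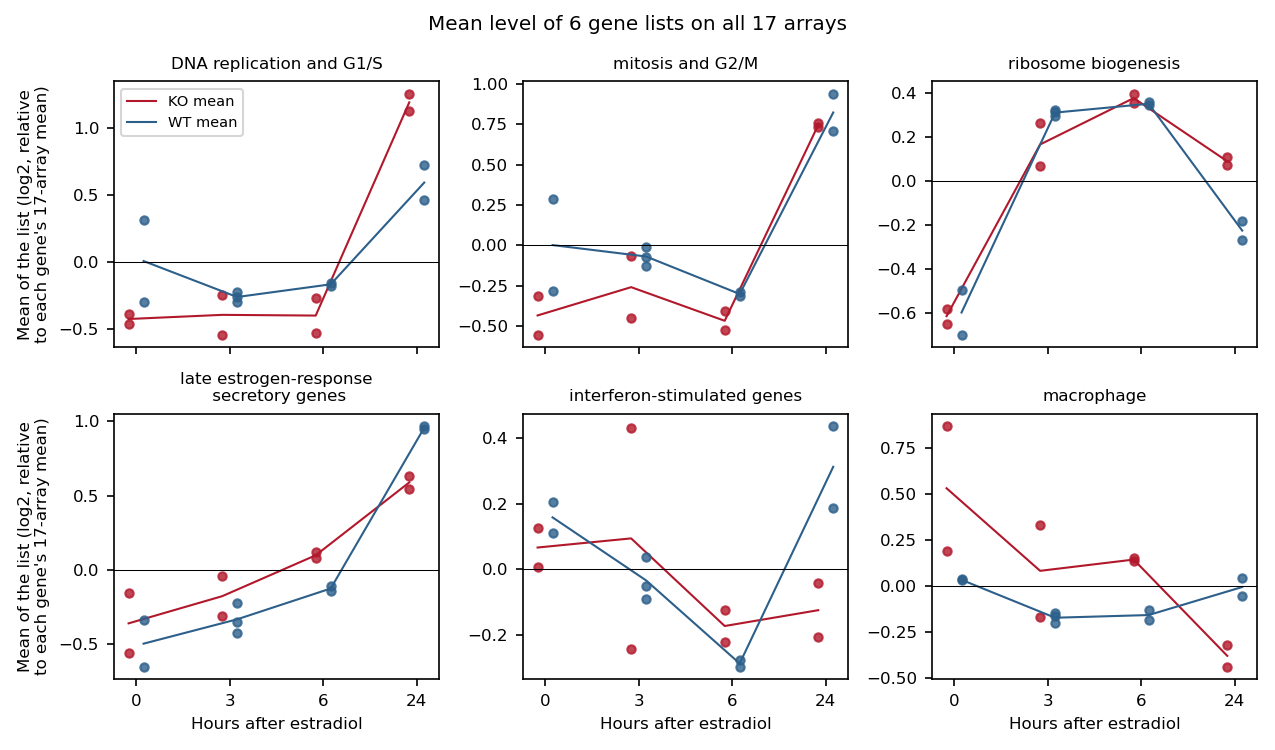
Mean log2 level of 6 gene lists relative to each gene's mean over 17 arrays (vertical axis) at 0, 3, 6 and 24 h (horizontal axis); points are arrays and lines join group means, KO in red and WT in blue. At 24 h the replication list is higher on the KO arrays (1.26 and 1.12) than on the WT arrays (0.72 and 0.46), and the secretory list is lower (0.63 and 0.55 against 0.97 and 0.95).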

How the data were processed

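Per the labels' protocols, Trizol-extracted RNA of whole uterus was biotinylated for Illumina MouseWG-6 v2 expression arrays. The deposited table holds log2 intensities that the authors normalized between arrays before deposit, and BeadStudio is named in the submitters' processing notes. Background correction, the log offset and any genome build have no statement in the sources used here. Scanner-level data were not used here. Samples were grouped by their titles, 0 further per-sample columns were present, and 0 pairs of arrays held identical values. The precision rests on 2 arrays a group at 24 h.

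Of 45281 probes, 34885 had 1 gene symbol in the platform annotation, 18 had several and 10378 were unlisted. Entrez numbers matched RefSeq for 34807 probes and changed 0 symbols. A gene was represented by its probe with the highest mean, and was tested where at least 2 arrays exceeded the array median. This left 14737 of 19057 genes and kept 635 of 774 list entries. Genes left out had only dim probes.

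R 4.3.3 and limma 3.58.1 fitted 8 groups over 17 arrays (9 residual and 4.56 prior degrees of freedom), with two-sided moderated tests adjusted by Benjamini-Hochberg over all genes. The test was tried on simulated data, with 50 genes changed at each size among 14737. It called 36 of those changed by 0.5, 50 by 1, 48 by 1.5 and 50 by 2 on the log2 scale, with 5 false calls. The simulated noise was normal and independent between genes and arrays, with no shift shared by many genes of an array. The 5 false calls are therefore no error rate for the real arrays. Alternatives changed the arrays fitted, the prior, the dim-probe filter, the choice of probe, the scaling and the replicate block, and left out each array in turn. Numbered replicates of KO and WT at 24 h did not deviate together (r = -0.1374), so the numbers were not taken as pairs.

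The members and the 27 pathway and 16 marker lists were chosen with earlier results of these data known. Named by rule were the 15 largest called rises and 15 largest called falls with groups that do not overlap, up to 5 members of each list by absolute difference, all EGR and NAB genes, and the 5 highest and 5 lowest changes against 0 h. Other list members and the genes named as outside a list were chosen after their values were seen. Promoters came from RefSeq's table for GRCm38.p6, matched by symbol for 11820 of the genes tested.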

Additional observations from a re-analysis of the deposited data

Results flagged for a closer look

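The difference between KO and WT at 24 h was set against that at 0 h in an interaction test in limma, adjusted over all genes. Of the 226 named genes 58 passed. Named genes were picked in part by their 24 h values or by this same test, so that count only describes. The values that follow are the difference at 24 h minus the difference at 0 h on the log2 scale, so a negative value says that KO stood lower relative to WT at 24 h than at 0 h. They were negative for 31 genes and positive for 27. A value can come from either time, and 15 of the 58 genes were not called at 24 h. Leaving out each of the 8 arrays of 0 and 24 h in turn changed no sign, and 29 of the 58 passed every time.

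Of those 29, 16 were negative. The CCL21 copies gave -3.02 (Ccl21c), -2.55 (Ccl21a) and -2.55 (LOC100041504), and the chemokine Cxcl17 gave -1.70. The linker histone H1f2 gave -2.03, Arg1 -1.94, Tmprss11a -1.56, Chst8 -1.51, Aoc1 -1.26, Hgfac -1.07, the immunoglobulin receptor Pigr -0.975, Fosl2 -0.77 and the cell cycle inhibitor Cdkn2b -0.71. The other 3 were called at 0 h and not at 24 h. The prostaglandin D synthase Hpgds gave -1.83, from 1.65 at 0 h and -0.19 at 24 h. The matrix protein Ogn gave -1.23, from 0.67 and -0.56, and the junction protein Cldn4 gave -1.21, from 0.88 and -0.33.

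The 13 positive genes that passed every time were the noradrenaline transporter Slc6a2 at 1.95, Rad54b at 1.89, Ung at 1.61, Sprr2e at 1.35, Lgi2 at 1.15, Maob at 1.13, Nr2f2 at 1.09, Ccnd2 at 1.01, Ldoc1 at 0.99, Ccnd1 at 0.97, Wnt7a at 0.97, Ecrg4 at 0.82 and Fkbp4 at 0.81. Part of some of these came from 0 h, where KO was called lower for Rad54b (-1.09), Slc6a2 (-0.72), Wnt7a (-0.51), Ccnd1 (-0.51) and Fkbp4 (-0.42).

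The other 29 passed in only some of the 8 omissions. KO replicate 2 of 0 h, which was high for macrophage, granulocyte and complement genes, bore on several. Slpi gave -2.74 (3 of 8) and -1.50 without that array, and it was called at neither time. Haptoglobin (Hp) gave -2.32 (2 of 8), mostly from 2.05 at 0 h, and -1.52 without that array (limma, adjusted p = 0.108). Laptm5 gave -1.48 (1 of 8), complement C2 -1.18 (2 of 8), Cd14 -1.03 (3 of 8) and Cp -0.885 (2 of 8), and without that array they gave -1.08, -0.87, -0.91 and -0.63 and did not pass. The eosinophil gene Prg2 gave -0.66 (5 of 8) and did not pass without it (-0.57), while the B cell gene Cd79b gave -0.78 (5 of 8), mostly from 0.59 at 0 h, and passed without it at -0.52. Without that array the median change went from -0.90 to -0.47 among macrophage markers and from -0.56 to -0.38 among complement genes. Without any other 1 of the 8 arrays these medians lay between -1.27 and -0.79, and between -0.96 and -0.52.

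WT replicate 1 of 0 h, which was high for replication genes, bore on others. Mcm5 gave 1.86 (3 of 8) and 1.22 without that array, the histone H2ac12 gave 1.82 (1 of 8) and 1.13 (limma, adjusted p = 0.0817), and Cdc6 gave 1.42 (3 of 8) and did not pass without it. E2f1 gave 1.54 (7 of 8) and failed without WT replicate 2 of 24 h. The progesterone receptor Pgr gave 0.79 (2 of 8) and 0.49 without WT replicate 1 of 0 h (limma, adjusted p = 0.051). Neither Mcm5, H2ac12 nor Pgr was called at 24 h.

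The serpin Serpinb11 gave 2.55 (6 of 8), from -2.32 at 0 h and 0.23 at 24 h, where it was not called. Hsph1 gave 1.60 (3 of 8), Stc1 1.07 (4 of 8), Lgr5 0.70 (5 of 8), envoplakin (Evpl) 0.64 (5 of 8), Rrp9 0.49 (7 of 8), the glycolytic mutase Pgam1 0.46 (4 of 8) and endoglin (Eng) 0.38 (1 of 8). Cxcl14 gave 0.77 (5 of 8), since it was lower in KO by more at 0 h (-1.68) than at 24 h (-0.91). On the negative side Ier3 gave -1.11 (4 of 8), Cldn3 -0.83 (1 of 8), smooth muscle myosin Myh11 -0.77 (1 of 8), Krt18 -0.63 (6 of 8), the elastase Cela1 -0.60 (1 of 8), Fxyd3 -0.59 (0 of 8) and Cdh1 -0.48 (6 of 8). Of these, Cldn3, Myh11, Krt18 and Pgam1 were not called at 24 h.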

How the results depend on the processing

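With the arrays of 24 h fitted alone, 3047 genes were called between KO and WT (1471 higher and 1576 lower), and 1228 of the 1231 were among them. Leaving out 1 array of 24 h gave 392 to 443 calls (151 to 200 higher, 233 to 273 lower), and the number at least 2-fold stayed within 1.5 times of 52 in every alternative. Other settings gave 1107 (a trend in the prior variance) to 1260 calls (arrays centred on the median, which moved the share of higher calls from 48.8% to 54.4%). The median difference of all genes was 0.001 in the main fit, 0.0177 with the arrays centred and -0.0036 with cyclic loess scaling. With the replicate block, which assumes a pairing that the labels do not give, 1170 genes were called, and 1155 with the numbers crossed at 24 h, an alternative chosen after seeing the data. The 24 h difference against that at 0 h gave 375 to 2258 calls without 1 array. Against 3 h it gave 218 to 1512 without 1 array, 468 with the replicate block and 497 with the crossed block. Against 6 h it gave 74 to 671 without 1 array, and 871 with only the arrays of those times. The causes were not tested. Among 226 named genes 87 were called, 42 of these kept the call in every alternative, and 0 turned their sign in any. Of the 30 largest differences 24 kept their call throughout. Of the calls lost, 144 were lost by leaving out an array and 15 under other settings, in 9 genes, among them Lcn2 (limma, adjusted p = 0.0653), Wnt7a (0.06), Fzd10 (0.0506) and Pdgfb (0.0513) with the replicate block. The number of arrays, 2 a group, limits what could be detected.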

Other observations

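Further gene groups were looked at after their values were seen, so their counts are descriptions with no test of the group. Of 19 measured genes of DNA repair, replication and related functions, 14 were called higher in KO at 24 h (4.08% of all genes were), with a median of 0.70. The members were chosen with their values in view, so the count cannot be weighed against that share. Among those called were Zfp367 (0.96), Tcf19 (0.89) and the checkpoint mediator Clspn (0.89). The recombination factor Rad54l (0.85) and the maintenance methyltransferase Dnmt1 (0.71) were called too. Of 18 measured heat shock chaperones 7 were called higher (4.08% of all genes were) and 11 were not called, with a median of 0.37. The cochaperone Stip1 read 12.03 and 12.35 in KO and 11.48 and 11.51 in WT (0.70; limma, adjusted p = 0.00135), and Hsp90aa1 was higher by 0.68. KO replicate 2 was the higher of the KO arrays for 16 of the 18, among them all 7 called, and the part of that array in these calls was not tested. Srm, the spermidine synthase, was higher by 0.73, while Arg1, the mitochondrial arginase Arg2 (-0.66) and the argininosuccinate synthase Ass1 (-0.39) were lower.

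Of 8 measured genes of glycan processing and the Golgi 5 were called lower in KO (4.27% of all genes were). They include Chst8 and Golm1 (-1.18), a Golgi membrane protein and not an enzyme. The sialyltransferase St6gal1 was lower (-1.33, limma adjusted p = 4.31e-04), with another probe at -0.17. Fut2 was lower by -0.96 and Gcnt3 by -0.79. At 0 h St6gal1 (-1.01) and Gcnt3 (-1.20) were called lower already. Of 16 measured glutathione enzymes 4 were called lower and 1 higher (4.27% and 4.08% of all genes were), with a median of -0.07. The falls were led by Gpx2, at 10.07 and 10.27 against 11.63 and 11.70 (-1.49). Next was Gsta3, at 8.62 and 8.70 against 10.35 and 9.92 (-1.47), and the rise was Gstp1 (0.39). Tmprss11g, a neighbour in family of Tmprss11a, read 8.41 and 8.26 in KO and 9.56 and 9.39 in WT (-1.14; limma, adjusted p = 5.66e-05). Among lymphatic vessel genes, measured because Ccl21a is made there, the hyaluronan receptor Lyve1 was higher in KO, at 10.56 and 10.54 against 9.53 and 9.77 (0.90; limma, adjusted p = 6.3e-04). At 0 h Lyve1 was called higher already (0.47). Reln was lower by -0.95, with another probe at 0.02, and Prox1 (-0.05), Flt4 (-0.08) and Pdpn (-0.30) were not called. Prox1 and Flt4 read near the array median of 8.2, where most probes have little signal.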
